A study of Mus musculus with 6 samples.

Results

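The genes described here are 7 genes that end or dampen the response of an olfactory sensory neuron (OSN) to an odor, namely Omp, Pde1c, Pde4a, Slc24a4, Grk3 (older symbol Adrbk2), Arrb2 and Atp2b2. They were chosen by name, and all 7 were found among the 24661 genes of the files. Tissue came from mice at postnatal day 21, 3 of them wild-type and 3 RTP1,2DKO, all labelled C57BL/6. It was the whole mucosa, so that each sample held the olfactory epithelium together with what surrounds it. The wild-type mice were littermates of the RTP1,2DKO mice and matched to them for sex, with 2 males and 1 female in each group according to the methods. RTP1,2DKO mice lack both Rtp1 and Rtp2, which encode chaperones that bring odorant receptors to the cell surface. The coding regions had been replaced in embryonic stem cells of a 129/B6 hybrid line, and the allele was then backcrossed to C57BL/6. The loss was constitutive and not limited to OSNs.

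An odorant bound to its receptor in the OSN cilia activates a G protein and adenylyl cyclase, and the cAMP that is made opens a channel through which calcium enters and opens a chloride channel in turn. The response ends when phosphodiesterases degrade cAMP, when exchangers and pumps remove calcium, and when receptor kinases and arrestins turn off the receptor. Omp encodes olfactory marker protein, an abundant protein of mature OSNs that binds cAMP and speeds the response kinetics.

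The libraries held between 31125410 and 41636996 estimated counts. Counts were divided by a size factor per mouse (DESeq2 median of ratios) and are called normalized counts below. The test was the quasi-likelihood test of edgeR on the 22152 genes that had a count in any mouse, with p-values adjusted by Benjamini-Hochberg over all of them, and a gene was called at an adjusted p under 0.05. Rtp1 had 13543 to 25301 normalized counts in the wild-type and 85.5 to 109 in RTP1,2DKO, and Rtp2 had 7157 to 9510 and 26.2 to 58.0, which fits the genotype labels of all 6 mice. Of 10 markers of mature OSNs, 9 were lower in RTP1,2DKO, with a median log2 fold change of -1.07 and a range from -2.00 for Stoml3 to -0.56 for Gfy, and their summed normalized count lay between 111619 and 137113 in the wild-type and between 55692 and 64027 in RTP1,2DKO. In these whole-tissue samples, fewer cells of a type and less RNA per cell cannot be told apart. The labels and methods give each library a mouse of its own.

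Of the 7 genes, 3 were lower in RTP1,2DKO (Omp, Pde1c and Pde4a) and 0 were higher, while Slc24a4, Grk3, Arrb2 and Atp2b2 did not pass the test. Among all genes tested 3.61% were called, 3.15% as lower and 0.460% as higher. The median log2 fold change of the 7 genes was -0.69, against 0.02 over all genes tested. The group with lower values held the marker protein and both phosphodiesterases, and the receptor kinase, the arrestin and the calcium pump had log2 fold changes between -0.03 and 0.22.

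In the order of the mouse numbers, which all values below keep, Omp had 67308, 60014 and 67100 normalized counts in the wild-type and 27622, 36678 and 39605 in RTP1,2DKO. Every RTP1,2DKO mouse lay below every wild-type mouse, and RTP1,2DKO mouse 1 was the lowest of its group. The level in RTP1,2DKO was 0.534 of that in the wild-type, a log2 fold change of -0.90 with a standard error (SE) of 0.15 and an adjusted p of 0.00297. Without RTP1,2DKO mouse 1 the log2 fold change was -0.76. The same mouse had the most RNA of 5 red blood cell genes, 169783 summed normalized counts against 57894 to 122697 in the other 5 mice, and the part of this difference in the Omp value was not tested. Omp is a gene of 1 exon on chromosome 7 (98143359-98145502, minus strand, GRCm38) that lies within the bounds of Capn5, a calpain protease gene on the same strand, and overlaps 0 of its exons. Capn5 itself had 298, 218 and 304 normalized counts in the wild-type and 297, 229 and 316 in RTP1,2DKO, with overlapping groups.

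**Figure D1:**
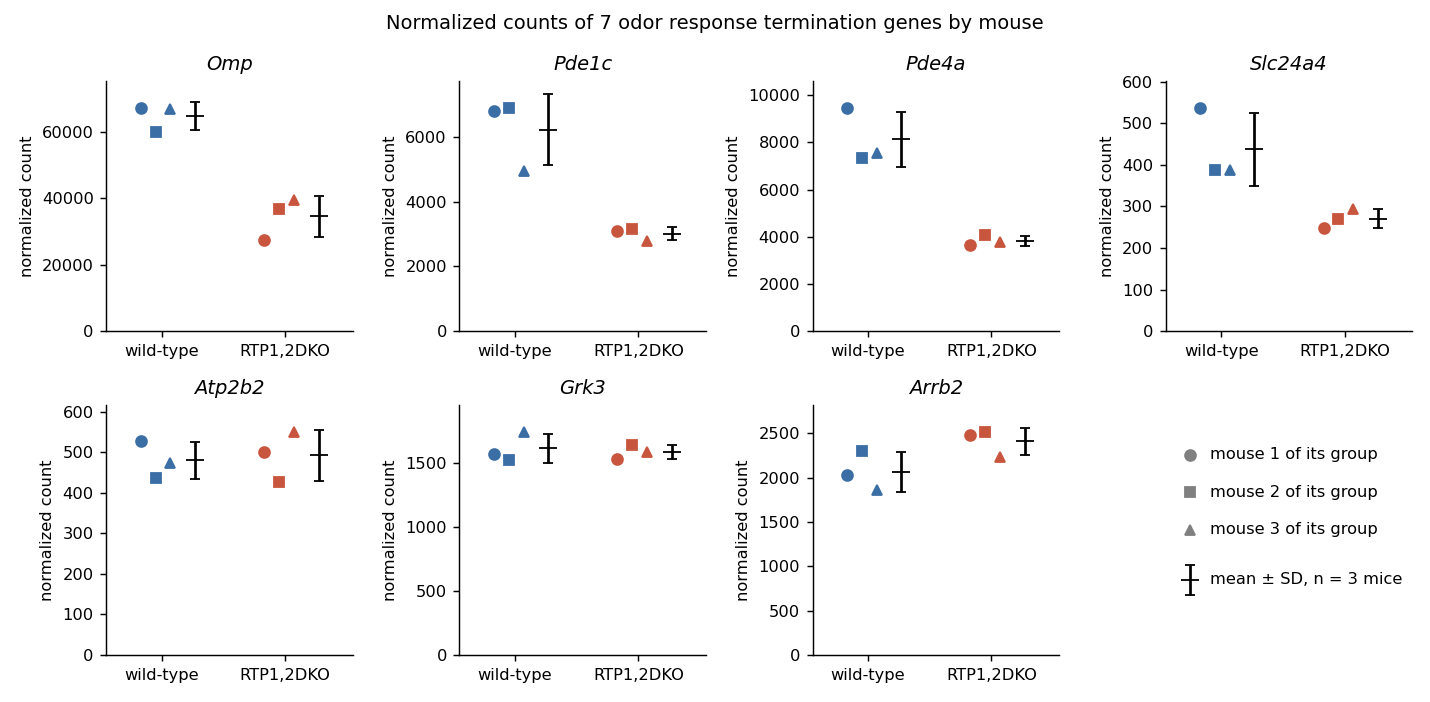
Normalized count of each of the 7 genes in each mouse, with 1 panel per gene and an axis of its own that starts at 0; blue marks are wild-type and red marks RTP1,2DKO mice, the shape gives the mouse number, and black bars give the mean ± SD of 3 mice. The groups do not overlap for Omp, Pde1c, Pde4a and Slc24a4, and overlap for Atp2b2, Grk3 and Arrb2. Slc24a4 was not called by edgeR (adjusted p = 0.0508), and the share of all genes without overlap was not computed.

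Pde1c encodes the phosphodiesterase of the cilia, which calcium and calmodulin activate, and Pde4a encodes a cAMP-specific phosphodiesterase found in the rest of the OSN. Pde1c lies on chromosome 6 (56069804-56569103, minus strand) and Pde4a on chromosome 9 (21165714-21213248, plus strand). A promoter of each is printed because both genes fell in RTP1,2DKO. Of the 3 windows of Pde4a the one shown is the only one with a motif match, and of the 3 windows of Pde1c, which have none, 1 is shown. Each runs from 250 bases before to 50 bases after a transcript start of RefSeq (GRCm38.p6), is read 5′ to 3′ on the strand of the gene, and has in capitals each match to CCCNNGGG, the core of the motif bound by Ebf (Olf-1) factors of OSNs.
Pde1c promoter, chr6:56362343-56362642 (minus strand): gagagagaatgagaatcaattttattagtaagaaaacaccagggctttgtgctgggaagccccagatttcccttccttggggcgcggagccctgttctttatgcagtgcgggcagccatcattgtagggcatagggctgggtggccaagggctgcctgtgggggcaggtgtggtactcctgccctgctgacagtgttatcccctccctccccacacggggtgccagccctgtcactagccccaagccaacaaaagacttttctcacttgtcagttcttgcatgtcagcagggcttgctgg
Pde4a promoter, chr9:21183851-21184150 (plus strand): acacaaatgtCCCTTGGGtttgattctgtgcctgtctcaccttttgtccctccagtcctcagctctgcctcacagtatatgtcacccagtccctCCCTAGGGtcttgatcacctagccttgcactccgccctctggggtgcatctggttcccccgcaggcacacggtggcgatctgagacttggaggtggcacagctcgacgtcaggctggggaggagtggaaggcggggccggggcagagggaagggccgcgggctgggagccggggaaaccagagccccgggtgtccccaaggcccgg

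Pde1c had 6797, 6890 and 4945 normalized counts in the wild-type and 3081, 3153 and 2783 in RTP1,2DKO. Wild-type mouse 3 was below the other wild-type mice and still above every RTP1,2DKO mouse, whose values lay close together. The level in RTP1,2DKO was 0.484 of that in the wild-type (log2 fold change -1.05, SE 0.14, edgeR adjusted p = 0.00088). Pde4a had 9464, 7350 and 7554 normalized counts in the wild-type and 3651, 4077 and 3775 in RTP1,2DKO. Here wild-type mouse 1 stood above the others, and the groups again did not overlap. The level in RTP1,2DKO was 0.472 of that in the wild-type (log2 fold change -1.08, SE 0.13, edgeR adjusted p = 0.000386). In all 3 pairs of mice with the same number both genes had lower values in RTP1,2DKO, with log2 differences of -1.14 to -0.83 for Pde1c and -1.37 to -0.85 for Pde4a.

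Slc24a4 encodes the potassium-dependent sodium/calcium exchanger NCKX4, which removes calcium from the cilia. It lies on chromosome 12 (102128733-102267091, plus strand), and its promoter is shown since it held the Ebf core as well.
Slc24a4 promoter, chr12:102128477-102128776 (plus strand): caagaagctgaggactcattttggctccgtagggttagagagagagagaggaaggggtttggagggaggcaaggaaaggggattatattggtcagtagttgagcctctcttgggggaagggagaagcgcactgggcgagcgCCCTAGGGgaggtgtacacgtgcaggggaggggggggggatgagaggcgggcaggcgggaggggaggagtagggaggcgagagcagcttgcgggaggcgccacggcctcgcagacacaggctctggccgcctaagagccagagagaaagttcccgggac
The gene had 537, 386 and 387 normalized counts in the wild-type and 248, 270 and 294 in RTP1,2DKO. The groups did not overlap, with wild-type mouse 1 far above the other 2. The log2 fold change was -0.69 (SE 0.18), with a 95% confidence interval from -1.07 to -0.31 and an edgeR adjusted p of 0.0508, just above the threshold. With the mice paired by number the log2 fold change was -0.67 and the adjusted p 0.0488, and with DESeq2's Wald test the adjusted p was 0.0149, so that the call rested on the test. With single mice left out, the edgeR adjusted p lay between 0.0511 and 0.182 and the log2 fold change between -0.77 and -0.51. The counts behind these values were low, 235 to 519 per mouse, with a counting error of up to 6.52%. The spread between wild-type mice was larger than that, with a coefficient of variation of 19.8%.

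Atp2b2 encodes a plasma membrane calcium ATPase, PMCA2, which pumps calcium out of the cell. It lies on chromosome 6 (113743831-114042613, minus strand), and the promoter farthest upstream of its 3 in the table is printed for comparison with the genes that fell.
Atp2b2 promoter, chr6:114042031-114042330 (minus strand): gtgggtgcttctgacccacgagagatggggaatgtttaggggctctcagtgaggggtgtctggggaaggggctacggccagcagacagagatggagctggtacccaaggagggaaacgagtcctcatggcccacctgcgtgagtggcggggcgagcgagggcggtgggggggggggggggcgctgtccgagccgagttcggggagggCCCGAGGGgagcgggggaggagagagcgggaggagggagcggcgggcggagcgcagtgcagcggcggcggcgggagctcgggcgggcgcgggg
It had 528, 437 and 474 normalized counts in the wild-type and 501, 426 and 551 in RTP1,2DKO, and the groups overlapped over most of their range. The log2 fold change was 0.04 (SE 0.15), with a 95% interval from -0.29 to 0.37. Over the 10 promoter windows of Pde1c, Pde4a, Slc24a4 and Atp2b2 in the RefSeq table, 4 held CCCNNGGG on either strand and 0 held TAATTA, a core bound by homeodomain factors, against 13.7% and 5.29% of all 32851 promoters of 300 bases. CCCNNGGG is its own reverse complement, as is TAATTA, so that 1 strand gives every match. The windows with CCCNNGGG belonged to Pde4a, which fell, as well as to Slc24a4 and Atp2b2, which were not called, and the 3 windows of Pde1c held none. Omp, Grk3 and Arrb2 had no entry.

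Grk3 encodes a G protein-coupled receptor kinase that phosphorylates active odorant receptors, and Arrb2 encodes beta-arrestin 2, which binds phosphorylated receptors and takes part in their desensitization and uptake. Grk3 lies on chromosome 5 (112910482-113015791, minus strand) and Arrb2 on chromosome 11 (70432635-70440828, plus strand). Grk3 had 1573, 1527 and 1749 normalized counts in the wild-type and 1536, 1640 and 1586 in RTP1,2DKO. These values were even between mice, with a coefficient of variation of 7.24% in the wild-type and 3.28% in RTP1,2DKO. The log2 fold change was -0.03 (SE 0.11), with a 95% interval from -0.27 to 0.22. Arrb2 had 2032, 2301 and 1862 normalized counts in the wild-type and 2478, 2520 and 2233 in RTP1,2DKO. RTP1,2DKO mice 1 and 2 lay above all wild-type mice, whereas RTP1,2DKO mouse 3 fell within the wild-type range. The log2 fold change was 0.22 (SE 0.12), with a 95% interval from -0.04 to 0.49 and an edgeR adjusted p of 0.544. Arrb2 had the higher value in RTP1,2DKO in 3 of 3 pairs of mice with the same number, by 0.13 to 0.29 on the log2 scale, and the exact permutation test gave p = 0.2. Exact permutation tests over the mice gave p = 0.1 for Omp, Pde1c, Pde4a and Slc24a4, which is the smallest value that 3 mice against 3 allow, and p = 0.8 for Atp2b2 and 0.9 for Grk3. The share of all genes tested that reach this smallest value was not computed.

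How far these genes moved relative to other transcripts of mature OSNs was asked next. Size factors were taken from the 10 mature OSN markers in place of all genes, so that the typical marker had no change by construction, and the whole table was tested again. The median of all genes tested then rose to 1.06 on the log2 scale, and 71.6% of genes were called, 70.4% as higher and 1.22% as lower. The markers' own spread is not part of these p-values, and a gene at 0 on the first scale comes out near that median here. On it, 0 of the 7 genes were lower and 3 were higher, Grk3, Arrb2 and Atp2b2, with a median of 0.36 over the 7.

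Pde1c and Pde4a were close to the typical marker, with log2 differences of 0.01 (95% interval -0.31 to 0.32) and -0.04 (-0.37 to 0.30). Omp differed from it by 0.15 (-0.23 to 0.52) and Slc24a4 by 0.36 (-0.08 to 0.80, edgeR adjusted p = 0.131), and both intervals include 0. Without wild-type mouse 1, the mouse with the high Slc24a4 value, the Slc24a4 difference was 0.56 with an edgeR adjusted p of 0.0331.
Grk3 was higher relative to the markers by 1.02 (0.68 to 1.36, edgeR adjusted p = 2.99e-05), Arrb2 by 1.27 (0.97 to 1.58, adjusted p = 7.99e-06) and Atp2b2 by 1.09 (0.67 to 1.51, adjusted p = 9.12e-05). These differences lay near the 1.06 of the median gene.

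**Figure D2:**
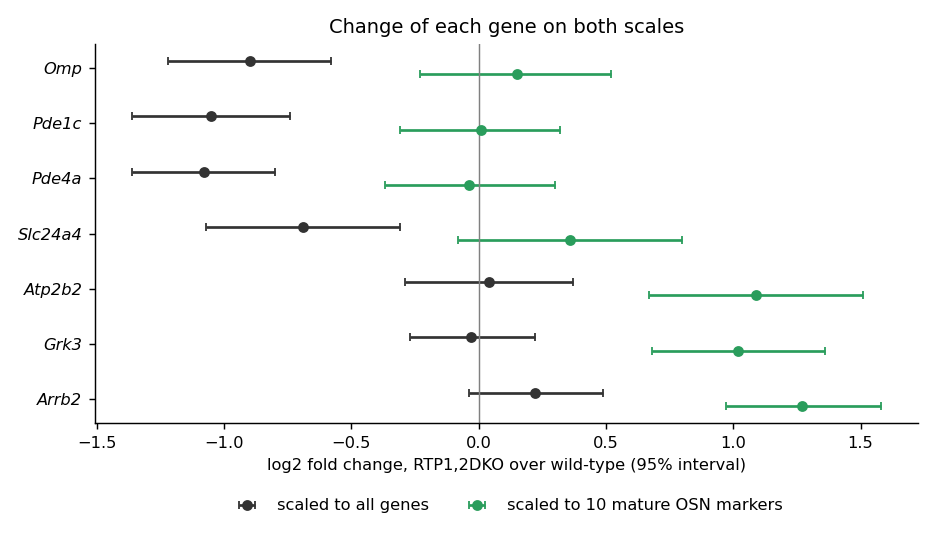
Log2 fold change of each of the 7 genes (RTP1,2DKO over wild-type) with its 95% confidence interval, with size factors from all genes in black and from the 10 mature OSN markers in green; the vertical line marks 0. The black intervals of Omp, Pde1c, Pde4a and Slc24a4 lie below 0 and their green intervals include it, while for Atp2b2, Grk3 and Arrb2 the black intervals include 0 and the green ones lie above it.

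Ratios within a mouse need no size factor. The log2 ratio of Pde1c to Omp was -3.31, -3.12 and -3.76 in the wild-type and -3.16, -3.54 and -3.83 in RTP1,2DKO, and that of Pde4a to Omp was -2.83, -3.03 and -3.15 against -2.92, -3.17 and -3.39. Both ratios overlapped between the groups, with mean differences of -0.11 and -0.16 (exact permutation p = 0.7 and 0.4). With each mouse left out these differences lay between -0.30 and 0.05 for Pde1c and between -0.28 and -0.04 for Pde4a. The ratio of Slc24a4 to Omp overlapped too, with a mean difference of 0.24 (exact permutation p = 0.3). For Grk3, Arrb2 and Atp2b2 every RTP1,2DKO mouse had a higher ratio to Omp than every wild-type mouse. The mean log2 ratio in the wild-type and in RTP1,2DKO was -5.33 and -4.43 for Grk3, -4.98 and -3.83 for Arrb2 and -7.08 and -6.13 for Atp2b2. Each had an exact permutation p of 0.1, the smallest possible, among the 6 ratios compared. Omp itself had a log2 fold change of -0.90, so a gene unchanged on the first scale also gains in this ratio. The share of all genes with such a gain was not computed.

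Levels of different genes were compared per length, as FPKM, the counts divided by the effective transcript length in kilobases and scaled by the library total. In the wild-type, Omp had the highest level with 1157 ± 45.0 FPKM (SD, n = 3), followed by Pde4a with 62.4 ± 8.48, Pde1c with 46.3 ± 13.3, Arrb2 with 42.8 ± 8.29, Slc24a4 with 8.20 ± 1.66, Grk3 with 7.72 ± 0.261 and Atp2b2 with 1.65 ± 0.150. Pde4a and Pde1c overlapped between mice, as did Pde1c and Arrb2, and Slc24a4 and Grk3, so that their order was not settled. In RTP1,2DKO the order was Omp with 601 ± 69.4 FPKM (SD, n = 3), Arrb2 with 49.3 ± 6.70, Pde4a with 28.9 ± 1.69, Pde1c with 19.8 ± 3.21, Grk3 with 7.42 ± 0.400, Slc24a4 with 4.95 ± 0.127 and Atp2b2 with 1.65 ± 0.224. No neighbours in this second order overlapped. Arrb2 thus stood above both phosphodiesterases in every RTP1,2DKO mouse, and Grk3 above Slc24a4.

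Pde1c was the gene with the most deposited transcripts, 8, and 2 of them held most of its counts. The 3907-base transcript, which has the length of Pde1c-201 in GENCODE M21, had 4659, 5267 and 3104 normalized counts in the wild-type and 1596, 2164 and 1302 in RTP1,2DKO, a ratio of group means of 0.389. The 8310-base transcript had 1613, 1325 and 1662 against 1200, 827 and 1309, a ratio of 0.725. Neither overlapped between the groups, but for the 8310-base form wild-type mouse 2 (1325) lay only just above RTP1,2DKO mouse 3 (1309). The shorter form had the lower ratio of group means. Its share of the gene was 68.5%, 76.4% and 62.8% in the wild-type and 51.8%, 68.7% and 46.8% in RTP1,2DKO, with differences of -16.7 to -7.8 percentage points in the 3 pairs of mice with the same number. The shares of the groups overlapped, and the exact permutation test gave p = 0.3 for the 3907-base form and p = 0.2 for the 8310-base form, among 11 shares tested. These are kallisto's estimates for forms that share sequence, with no error of their own in the values used.

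**Figure D3:**
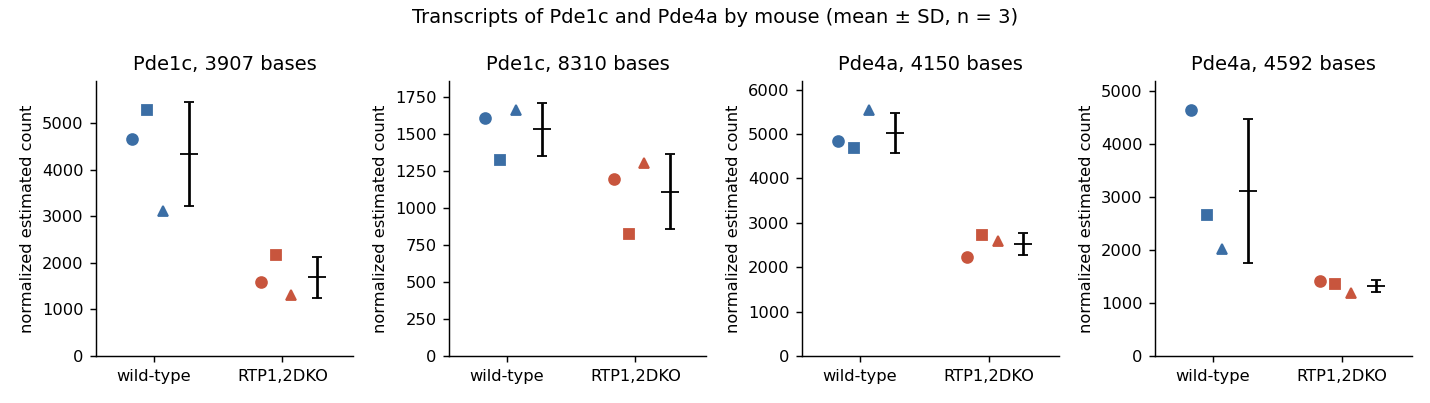
Normalized estimated count of 2 transcripts each of Pde1c and Pde4a in each mouse, with axes that start at 0; blue marks are wild-type and red marks RTP1,2DKO mice, the shape gives the mouse number, and black bars give the mean ± SD of 3 mice. No panel has overlapping groups, but for the 8310-base form of Pde1c the nearest values are 1325 (wild-type mouse 2) and 1309 (RTP1,2DKO mouse 3). The gap is wider for the 3907-base than for the 8310-base form of Pde1c, with ratios of group means of 0.389 and 0.725. The values are kallisto's estimates, shown without an error of their own.

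Both Pde4a transcripts with counts were lower in RTP1,2DKO. The 4150-base form had 4832, 4694 and 5529 normalized counts in the wild-type and 2237, 2726 and 2587 in RTP1,2DKO, and the 4592-base form had 4632, 2657 and 2025 against 1414, 1350 and 1188. In kallisto's estimates the high Pde4a value of wild-type mouse 1 lay in the 4592-base form. That form held 48.9% of the gene in that mouse and 26.8% to 38.7% in the other 5. How well reads were assigned between the 2 forms was not tested. The remaining Pde4a transcript, of 4658 bases, was listed at 0 in every mouse. For Arrb2, a form of 1955 bases held 88.6% to 97.8% of the counts. The shares of the Atp2b2 and Grk3 forms were not stable between mice of 1 genotype, with 98.5%, 86.3% and 3.38% on the 8920-base Atp2b2 form in the wild-type, and were not read further. Omp and Slc24a4 each had 1 transcript in the files, of 2168 and 2092 bases, and the Slc24a4 form has the length of Slc24a4-204 in GENCODE M21.

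The paralogs of the 7 genes were examined to see which family members carried the loss. Among the 24 cyclic nucleotide phosphodiesterases, 3 were lower in RTP1,2DKO and 0 higher, with a median log2 fold change of -0.03. Beside Pde1c and Pde4a this was Pde7b, another cAMP-specific enzyme, with 13604, 11238 and 8385 normalized counts in the wild-type and 6312, 6470 and 5100 in RTP1,2DKO (log2 fold change -0.89, SE 0.17, edgeR adjusted p = 0.00797). Pde7b also had the highest mean FPKM of the family in the wild-type, 71.0, with 37.2 in RTP1,2DKO, though it overlapped with Pde4a between mice. The 3 genes that fell had the 3 highest wild-type means of the family, and the lowest of the 3, Pde1c, overlapped with Pde6d. Together they made up 62.5%, 57.7% and 53.6% of the family's FPKM in the wild-type and 42.1%, 45.0% and 40.7% in RTP1,2DKO, without overlap (exact permutation p = 0.1). This share was computed on genes already called lower and describes them only. The FPKM sum of the other 21 phosphodiesterases was 124, 145 and 117 in the wild-type and 128, 112 and 106 in RTP1,2DKO, with overlapping groups. The fourth in level, Pde6d, which carries prenylated proteins, had 44.0 FPKM in the wild-type and 30.8 in RTP1,2DKO and an edgeR adjusted p of 0.066.

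**Figure D4:**
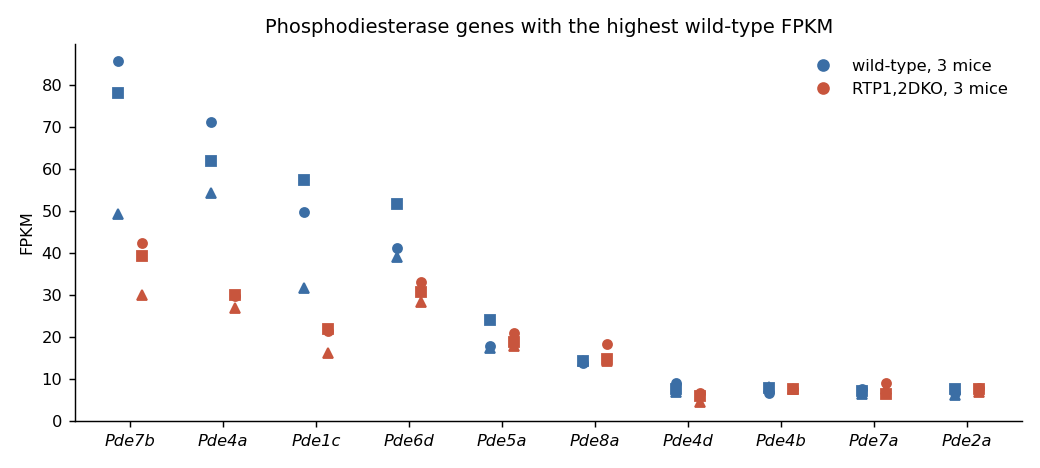
FPKM in each mouse for the 10 phosphodiesterase genes with the highest wild-type means, on an axis that starts at 0; blue marks are wild-type and red marks RTP1,2DKO mice, and the shape gives the mouse number. Pde7b, Pde4a and Pde1c have the highest wild-type means, 71.0, 62.4 and 46.3 FPKM, and have 37.2, 28.9 and 19.8 FPKM in RTP1,2DKO.

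Among the 9 sodium/calcium exchangers, 2 were lower and 0 higher, and neither was Slc24a4. Slc24a2, the exchanger NCKX2 known from retinal cones and brain, had 9923, 9038 and 6906 normalized counts in the wild-type and 5436, 4125 and 4612 in RTP1,2DKO (log2 fold change -0.87, SE 0.15, edgeR adjusted p = 0.00528). Slc8a1, the potassium-independent exchanger NCX1, had 6159, 6853 and 6316 against 3331, 3381 and 3610 (log2 fold change -0.91, SE 0.11, edgeR adjusted p = 0.000536). The wild-type mean was 25.1 FPKM for Slc24a2, 10.3 for Slc8a1 and 8.20 for Slc24a4, which held 14.0% of the family's FPKM and overlapped with Slc8a1 between mice. Slc24a2, Slc8a1 and Pde7b were called lower with TMM size factors, the filter, DESeq2, the pairing, the length offset and each mouse left out. GENCODE M21 has a longer Slc24a4 transcript, Slc24a4-202 of 4465 bases, so that reads from outside the 2092 deposited bases would not have been counted.

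No gene of the other 3 families was called by edgeR. In the plasma membrane calcium ATPases, 0 of 4 passed, and Atp2b2 held 3.33% of the family's FPKM in the wild-type. The main pump of the tissue by level was Atp2b1, with 34.8 FPKM in the wild-type and 26.8 in RTP1,2DKO (log2 fold change -0.34, edgeR adjusted p = 0.144). Of the 6 receptor kinases, Grk3 held 14.2% of the family's FPKM in the wild-type, close to Grk4 with 14.7%. The highest wild-type mean was that of Grk6, 17.3 FPKM with 20.1 in RTP1,2DKO (log2 fold change 0.25, edgeR adjusted p = 0.539), which overlapped with Adrbk1 at 17.1. Arrb2 was the main arrestin, with 84.6% of the family's FPKM in the wild-type and 86.8% in RTP1,2DKO. Arrb1 had most of the rest, at 6.94 FPKM in the wild-type, and the visual arrestins Sag and Arr3 were below 1 FPKM in every mouse.

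Of 15 genes listed as calcium sensors and feedback kinases, 2 were lower and 0 higher. This list also holds calcium pumps of the endoplasmic reticulum and a regulator of G protein signalling. Camk2d, a subunit of calcium/calmodulin-dependent kinase II, had a log2 fold change of -0.55 (edgeR adjusted p = 0.0186), and Vsnl1, a neuronal calcium sensor, one of -0.78 (adjusted p = 0.0272). Both lost the call when wild-type mouse 2 or any single RTP1,2DKO mouse was left out, with adjusted p values from 0.0658 to 0.113. Without the 7 genes, these families and sensors held 56 genes, of which 5 were lower (8 with DESeq2) and 0 higher, with a median log2 fold change of -0.08. Of the 12 genes listed for the onset of the response, 9 were lower, among them Adcy3 (log2 fold change -1.41) for adenylyl cyclase, with a median of -1.0. Of these 12, 9 are among the markers used above, whereas the families were taken whole, with genes of very low level. The lists are therefore not alike in make-up, and a difference between onset and ending of the response was not tested. Relative to the typical mature OSN marker, the 5 genes differed by 0.15 (95% interval -0.19 to 0.50) for Pde7b, 0.19 (-0.15 to 0.53) for Slc24a2, 0.15 (-0.16 to 0.46) for Slc8a1, 0.28 (-0.13 to 0.69) for Vsnl1 and 0.51 (0.21 to 0.81) for Camk2d. Camk2d was the one called on this scale, as higher (edgeR adjusted p = 0.00362). On it 70.4% of all genes were called higher and the median gene was at 1.06, so that Camk2d lay below the typical gene.

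**Figure D5:**
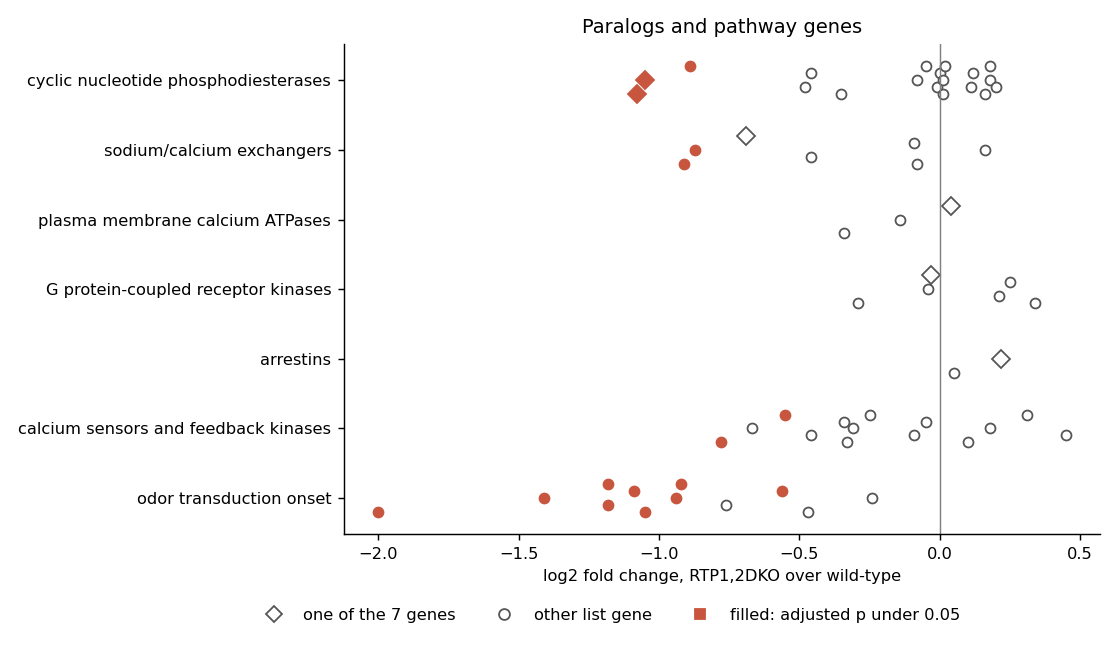
Log2 fold change (RTP1,2DKO over wild-type) of the genes of each family or list, 1 mark per gene, for genes whose 2 group means add up to at least 100 normalized counts; diamonds are those of the 7 genes that belong to a family, circles the other genes, and filled red marks have an edgeR adjusted p under 0.05. In the families, the filled marks are Pde1c, Pde4a and Pde7b in the phosphodiesterases and Slc8a1 and Slc24a2 in the exchangers, where Slc24a4 follows at -0.69 without a call, and no mark is filled in the pumps, receptor kinases or arrestins. Camk2d and Vsnl1 are filled in the calcium sensors and feedback kinases, as are 9 of the 12 genes of odor transduction onset.

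Markers of other cells were read beside these values. Of 8 immature OSN markers, Gap43 (log2 fold change 0.58) and Gng8 (0.91) were higher and Stmn4 (-0.88) lower, and the summed counts of the list overlapped between the groups. The 6 genes of globose basal and cycling cells had positive log2 fold changes, 0 passed the test, and their sum was 5944 to 7179 normalized counts in the wild-type and 8434 to 10545 in RTP1,2DKO. Of 5 red blood cell genes, Hbb-bt was higher (log2 fold change 0.88, edgeR adjusted p = 0.0485). Of the markers of horizontal basal (4), sustentacular (4), respiratory ciliated (5), macrophage (5), ensheathing and Schwann (4) and microvillar (3) cells, 0 were called, and each sum overlapped between the groups. The part of these cells in the levels of Grk3, Arrb2 and Atp2b2 was not tested.

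The genes whose values over the 6 mice ran closest to those of the 3 genes that fell were found among 13900 genes with a mean of at least 100 normalized counts. The measure was the Euclidean distance between log2 values centred on their mean. For Pde4a these were Mmp24 at a distance of 0.113, Sec14l5 at 0.117 and Pnmal1 at 0.169. For Pde1c the nearest was Ric8b, which encodes an exchange factor for the olfactory G protein, at 0.17, followed by Kcnn2 at 0.222 and Pcdh9 at 0.224. Ric8b had 13430, 13850 and 10150 normalized counts in the wild-type and 6725, 6758 and 6309 in RTP1,2DKO, with the same low value in wild-type mouse 3 as Pde1c. For Omp they were Epha5 at 0.251, Lpcat4 at 0.251 and Slc14a2 at 0.276, which shared the low value of RTP1,2DKO mouse 1. All 9 had log2 fold changes between -0.82 and -1.20, which the measure of likeness itself requires.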

How the data were processed

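RNA-Seq libraries of the olfactory mucosa were made with a stranded kit per the labels. The authors ran kallisto on mouse transcripts of the UCSC Genome Browser with extended odorant receptor annotations (mm10 per the labels) and deposited, per transcript and mouse, the length, effective length, estimated counts and TPM. The kallisto version and its strand setting are not given in the sources used here. The deposited TPM values were not used for tests. Estimated counts were summed over transcripts per gene name, which gave 24661 genes, and rounded to whole numbers. Files were mapped to groups by their sample labels. FPKM was computed from the estimated counts, effective lengths and totals.

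Genes were fitted with edgeR 4.0.16 (quasi-likelihood) using DESeq2 1.42.0 size factors in R 4.3.3 and no block, since the methods name edgeR and DESeq size factors and mention none, and summarised in Python 3.11.15 (scipy 1.17.1, pandas 2.3.3). Exact permutation tests were two-sided. On simulated counts of 21938 genes with 200 changed, this comparison recovered 76% of them, 15.1% of the calls were false, and 100% of the signs were right. The methods name sex-matched littermates without saying which mice these are. The deviations of mice with the same number from their group means correlated at 0.14, 0.177 and 0.101 over 18156 genes. The other pairings lay between -0.217 and 0.09, the last for wild-type mouse 1 and RTP1,2DKO mouse 3. The numbers of the labels were taken as pairs, but these weak correlations do not settle which mice were littermates. Deviations within a group sum to 0, so the values depend on each other. At least 98.9% of the 31-base words of each of the 7 genes occur in no other gene of GENCODE M21, an annotation that may differ from theirs. Counting errors cover sampling of reads only.

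The 7 genes and all gene lists were chosen with earlier results of these data known. Named genes are the 7 genes, the genes of the family, sensor and response-onset lists past the threshold or highest in wild-type FPKM, the targeted genes, Capn5, marker genes, and for each of the 7 genes past the threshold the 3 genes with the nearest profile. Pde6d, Arrb1, Sag, Arr3, Grk4, Adrbk1 and Gnb1 were named after their values were seen. One gene of the lists is counted in them but not reported by name here.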

Additional observations from a re-analysis of the deposited data

How the results depend on the processing

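Omp, Pde1c and Pde4a kept their call and direction, and Grk3, Arrb2 and Atp2b2 remained without a call, with TMM size factors, a filter at a mean of 10 counts, DESeq2's Wald test, the replicate block, an offset for effective length and each mouse left out. Slc24a4 was called with DESeq2 (-0.69, adjusted p = 0.0149) and with the replicate block (-0.67, edgeR adjusted p = 0.0488). The genes higher in RTP1,2DKO numbered 216 with DESeq2 and 196 with the replicate block, and the called genes of the family and sensor lists numbered 8 with DESeq2. The block, which pairs mice by number, also brought Gnb1, Gng13 and Top2a under the threshold (edgeR adjusted p = 0.0357, 0.0288 and 0.0154) and took Hbb-bt over it (0.0506), and it changed no other call among the genes named here.

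With each mouse left out, the log2 fold change lay between -1.01 and -0.76 for Omp, -1.19 and -0.97 for Pde1c, -1.15 and -0.96 for Pde4a, -0.77 and -0.51 for Slc24a4, -0.07 and 0.03 for Grk3, 0.15 and 0.31 for Arrb2, and -0.05 and 0.13 for Atp2b2. Grk3 changed sign without wild-type mouse 3 (0.03), and Atp2b2 without wild-type mouse 2 (-0.03) and RTP1,2DKO mouse 3 (-0.05). Called genes numbered 598 to 777, 533 to 686 of them lower and 52 to 132 higher, with 52, 59 and 65 higher without RTP1,2DKO mouse 1, 2 or 3. In the family and sensor lists without the 7 genes, 3 to 5 genes were called lower. Relative to the mature OSN markers, the ranges were -0.004 to 0.28 for Omp, -0.07 to 0.12 for Pde1c, -0.17 to 0.11 for Pde4a, 0.21 to 0.56 for Slc24a4, 0.90 to 1.15 for Grk3, 1.26 to 1.30 for Arrb2 and 0.95 to 1.21 for Atp2b2, with 14965 to 15662 called genes, 231 to 274 lower and 14732 to 15420 higher. The sign turned for Omp without RTP1,2DKO mouse 3 (-0.004), for Pde1c without RTP1,2DKO mouse 1 (-0.01) or wild-type mouse 3 (-0.07) and for Pde4a without wild-type mouse 1 (0.11). The cause was not tested. The log2 ratio to Omp, RTP1,2DKO minus wild-type, lay between -0.30 and 0.05 for Pde1c, -0.28 and -0.04 for Pde4a, 0.14 and 0.37 for Slc24a4, 0.76 and 1.0 for Grk3, 0.97 and 1.3 for Arrb2 and 0.78 and 1.1 for Atp2b2. Counting error was at most 6.52% for Slc24a4 and 4.82% for Atp2b2, below the spread between mice.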
